A study of Mus musculus with 2 samples.

Results

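The mesothelium is the single layer of flat epithelial cells that covers the pancreas and the other organs of the body cavity. Its cells were picked out here from 2 droplet-based single-cell libraries of mouse pancreas at embryonic day 13.5, one labelled knockout (KO) and one labelled control. The design text names the knockout Dpy30∆P, and the sources used here give neither its alleles nor the Cre driver nor the deleted part of Dpy30. Both samples were C57BL/6, and each pancreas was digested with trypsin and sorted for live cells before loading. A barcode was taken as mesothelial when it held at least 3 unique molecular identifiers (UMIs, each one counted RNA molecule) of Upk3b, Lrrn4 and Upk1b together, fewer than 3 of the epithelial genes Epcam and Cdh1, and fewer than 2 of the endothelial genes Pecam1 and Cdh5. Barcodes with under 500 genes, under 1000 UMIs or over 10% of UMIs from mitochondrial genes were set aside first. This gave 369 mesothelial cells of 6883 cells in all, with 175 of 3012 in the KO-labelled library and 194 of 3871 in the control library.

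Mesothelial cells descend from the coelomic epithelium, an early sheet that expresses the transcription factors Wt1 and Lhx9. They carry microvilli and keratins like other epithelia, but also make fibroblast matrix and secrete growth factors, and in several fetal organs some of them leave the surface and become mesenchymal cells. Upk3b and Upk1b encode uroplakins, membrane proteins also found in the lining of the bladder, and Lrrn4 encodes a membrane protein with leucine-rich repeats. In the mouse genome GRCm38, Upk3b lies at chr5:136038496-136046487 (plus strand), Lrrn4 at chr2:132868305-132880891 (minus strand) and Upk1b at chr16:38773184-38800328 (minus strand). Dpy30 encodes a shared subunit of the COMPASS complexes, which methylate histone H3 at lysine 4, and lies at chr17:74299474-74323944 (minus strand).

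The KO-labelled library held 28033433 UMIs over 3044 barcodes and the control library 32702089 UMIs over 3900 barcodes. The mesothelial cells held 1849640 UMIs in the KO-labelled library and 1933982 UMIs in the control library. Their median depth was 10150 UMIs and 2944 genes in the KO-labelled library, against 8894 UMIs and 2743 genes in the control library. The libraries shared 22 barcodes, and 0 barcodes were mesothelial in both. Xist had 3188 UMIs in KO-labelled and 0 UMIs in control mesothelium, and the Y-linked Ddx3y had 0 UMIs in KO-labelled and 157 UMIs in control mesothelium, so the samples differ in sex. Sex, animal, library and label cannot be told apart with 1 sample per group. Every difference between the libraries is therefore given without a test, and intervals are exact 95% intervals that cover counting error only.

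The knockout could not be checked in these cells. Dpy30 stood at 149.8 CPM in KO-labelled and 181 CPM in control mesothelium (CPM, the gene's UMIs scaled to the same total in each library), a log2 ratio of -0.27 on the scale of CPM + 5. Over the alternative settings this ratio ran from -0.47 to 0.15. It was above 0 only when cells were thinned to 3000 UMIs before gating, which left 43 KO-labelled and 80 control cells. Dpy30 stood at 114 CPM in KO-labelled and 97.7 CPM in control mesenchyme, and at 259.6 CPM in KO-labelled and 220.1 CPM in control epithelium. The 3′ tag checks the label only if it lies within the deleted part.

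The counts of the 3 gate genes chose the cells and are given as a description. Upk3b stood at 363 CPM in KO-labelled and 448 CPM in control mesothelium, Lrrn4 at 128 CPM in KO-labelled and 177 CPM in control mesothelium, and Upk1b at 141 CPM in KO-labelled and 145 CPM in control mesothelium. Upk3b made up 57.5% of the gate UMIs in KO-labelled cells and 58.1% in control cells. All 3 genes were seen in 90 of 175 KO-labelled cells (51.4%) and in 104 of 194 control cells (53.6%). The median cell held 6 gate UMIs in either library. Of the cells with at least 3 gate UMIs, the epithelial genes removed 1 in the KO-labelled library and 4 in the control library, and the endothelial genes removed 0 in either.

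The cells carried further marks of mesothelium that the gate did not read. Krt19, a keratin of simple epithelia, stood at 216 CPM (interval 195 to 238) in KO-labelled mesothelium, against 267 CPM (244 to 291) in control mesothelium. In mesenchyme it was near 0, at 2.42 CPM in KO-labelled and 2.16 CPM in control mesenchyme. Lhx9 stood at 163 CPM (interval 145 to 182) in KO-labelled mesothelium, against 139 CPM (122 to 156) in control mesothelium, while mesenchyme had 0.860 CPM in KO-labelled and 0.520 CPM in control mesenchyme. Mesenchyme here means cells with 0 gate UMIs and at least 5 UMIs of Col1a1, Col3a1 and Pdgfra, 1595 cells in the KO-labelled library and 1942 in the control library. Epithelium means cells with 0 gate UMIs and at least 3 UMIs of Epcam and Cdh1, 433 cells in the KO-labelled library and 648 in the control library.

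Of 18 mesothelial marker genes measured, those with at least 20 UMIs over the mesothelial cells of both libraries, 15 were at least 4-fold above mesenchyme in both libraries. Among all 9401 genes measured in this comparison 126 were, or 1.34%. The markers were chosen to mark this cell type, so the count checks the label and is no finding. Wt1 stood at 186 CPM in KO-labelled and 172 CPM in control mesothelium, against 16.1 CPM in KO-labelled and 17.9 CPM in control mesenchyme. Msln, which encodes mesothelin and marks adult mesothelium, had 0 UMIs in KO-labelled and 3 UMIs in control mesothelium. A count of 0 among 175 cells allows a share of cells with an Msln UMI of up to 1.71% when 3 counts are taken as the limit, and of up to 2.09% by the exact interval. Tbx18, a marker of the covering layer of the heart, had 0 UMIs in the mesothelial cells of either library. Nkain4 went the other way, with 48.1 CPM in KO-labelled and 42.9 CPM in control mesothelium against 145 CPM in KO-labelled and 154 CPM in control mesenchyme.

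**Figure D1:**
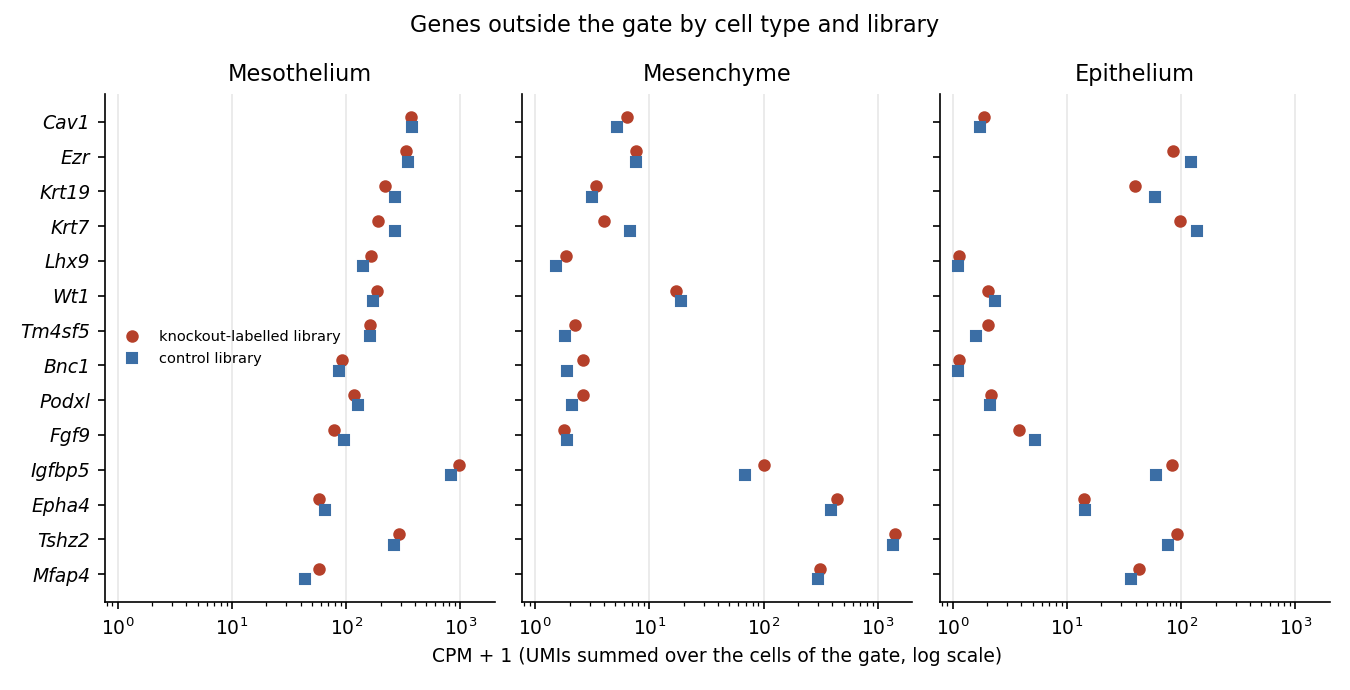
Levels of 14 genes outside the gate, as CPM + 1 on a log axis, in mesothelial, mesenchymal and epithelial cells of the KO-labelled library (red circles) and the control library (blue squares). Cav1 stands at 366 CPM in KO-labelled and 373 CPM in control mesothelium and near 0 in mesenchyme and epithelium. Epha4, Tshz2 and Mfap4 are higher in mesenchyme than in mesothelium.

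The genes highest above mesenchyme, among those with at least 50 CPM in mesothelium and ranked by the smaller log2 ratio of the 2 libraries, included a surface and cell-cortex group. Cav1, which coats caveolae, led with 366 CPM in KO-labelled and 373 CPM in control mesothelium, against 5.40 CPM in KO-labelled and 4.24 CPM in control mesenchyme (log2 ratios 5.16 in the KO-labelled and 5.35 in the control library). In epithelium it was as rare, at 0.876 CPM in KO-labelled and 0.718 CPM in control epithelium. Ezr, which ties microvilli to actin, stood at 335 CPM in KO-labelled and 344 CPM in control mesothelium, against 6.65 CPM in KO-labelled and 6.69 CPM in control mesenchyme. Its scaffold partner Slc9a3r1 stood at 351 CPM in KO-labelled and 457 CPM in control mesothelium, against 6.65 CPM in KO-labelled and 10.5 CPM in control mesenchyme. Podxl, a sialomucin that this scaffold anchors, stood at 117 CPM in KO-labelled and 127 CPM in control mesothelium, against 1.64 CPM in KO-labelled and 1.11 CPM in control mesenchyme. These 3 genes work together under the free surface of epithelia.

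Keratins, adhesion genes and regulators made up much of the rest. Krt7 stood at 189 CPM in KO-labelled and 267 CPM in control mesothelium, against 2.97 CPM in KO-labelled and 5.72 CPM in control mesenchyme. Tm4sf5, a tetraspan membrane protein, stood at 160.0 CPM in KO-labelled and 161 CPM in control mesothelium, against 1.25 CPM in KO-labelled and 0.818 CPM in control mesenchyme. The laminin receptor Bcam, the basement membrane protein Frem2 and the matrix cross-linking enzyme Tgm2 had log2 ratios over mesenchyme of at least 3.99 in both libraries. The transcription regulators named by this ranking were Lhx9 (at least 4.70), Bnc1 (at least 3.85) and Myrf (at least 3.76). Cryab, a small heat shock protein, had 4.58 in the KO-labelled and 4.58 in the control library. Fgf9, a growth factor that signals to the mesenchyme in the developing lung, stood at 77.3 CPM in KO-labelled and 94.6 CPM in control mesothelium, against 0.782 CPM in KO-labelled and 0.892 CPM in control mesenchyme. The ranking also named Ppp2r2b, Rpp25, Ptgds, Cd200 and Sbspon, with log2 ratios from 3.61 to 4.48.

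The lists by role filled in this profile. Of 27 growth factor ligands measured, 5 were at least 4-fold above mesenchyme in both libraries: Fgf9, Pdgfa, Pdgfc, Rspo1 and Sema3c. Pdgfa, a ligand of the receptor Pdgfra, stood at 93.5 CPM in KO-labelled and 86.4 CPM in control mesothelium, against 15.4 CPM in KO-labelled and 17.8 CPM in control mesenchyme. Pdgfc, another of its ligands, stood at 69.2 CPM in KO-labelled and 57.9 CPM in control mesothelium, against 8.21 CPM in KO-labelled and 6.61 CPM in control mesenchyme. Of 20 coelomic epithelium transcription factors, 5 were as far above mesenchyme, namely Wt1, Lhx9, Gata6, Bnc1 and Nr2f1. Of 17 basement membrane genes, 5 were, namely Lama5, Col4a5, Col18a1, Itga3 and Npnt. Of 22 junction and polarity genes, 9 were, among them Cdh3, Crb2, Pard6b, Cgn, F11r and Pdpn. Aldh1a2, which makes retinoic acid, stood at 6.18 CPM in KO-labelled and 8.03 CPM in control mesenchyme and was higher in mesothelium, with log2 ratios of 3.41 in the KO-labelled and 3.94 in the control library. Of 12 Hox genes measured, Hoxa7 alone passed 4-fold, with 2.46 in the KO-labelled and 3.34 in the control library.

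Set against epithelium, 239 of 9401 genes (2.54%) were at least 4-fold higher in mesothelium in both libraries, and 70 (0.745%) were so against epithelium and mesenchyme alike. The keratins went both ways. Krt18 stood at 110.3 CPM in KO-labelled and 109.6 CPM in control mesothelium, against 361 CPM in KO-labelled and 562 CPM in control epithelium. Krt8 stood at 56.2 CPM in KO-labelled and 33.1 CPM in control mesothelium, against 524 CPM in KO-labelled and 724 CPM in control epithelium. Krt7, Krt14 and Krt19 were higher in mesothelium than in epithelium, where Krt19 had 38.4 CPM in KO-labelled and 58.6 CPM in control epithelium and Krt7 95.8 CPM in KO-labelled and 136 CPM in control epithelium. Krt14 stood at 31.4 CPM in KO-labelled and 31.5 CPM in control mesothelium, and was at 0 in epithelium. The claudin Cldn6 was an epithelial gene here, with 2.16 CPM in KO-labelled and 8.79 CPM in control mesothelium, against 449 CPM in KO-labelled and 407 CPM in control epithelium.

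Mesothelial cells carried some fibroblast transcripts and lacked others. Of the genes measured, 49 (0.521%) were at least 4-fold below mesenchyme in both libraries. Among genes with at least 50 CPM in mesothelium the lowest was Epha4, an ephrin receptor, at 56.8 CPM in KO-labelled and 64.6 CPM in control mesothelium, against 441 CPM in KO-labelled and 387 CPM in control mesenchyme. Mfap4, a microfibril protein, stood at 57.3 CPM in KO-labelled and 42.9 CPM in control mesothelium, against 311 CPM in KO-labelled and 299 CPM in control mesenchyme. The transcription factor Tshz2 stood at 291 CPM in KO-labelled and 259.6 CPM in control mesothelium, against 1397 CPM in KO-labelled and 1351 CPM in control mesenchyme. Sept11, Snhg18, Slit2, Btg1, Pcolce, Igfbp4 and Tcf4 followed, with log2 ratios from -2.01 to -1.55.

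The fibrillar matrix genes were mostly below mesenchyme. Of 16 measured, 10 were below it in both libraries, 4 above it in both and 2 mixed, with a median log2 ratio of -0.44 in the KO-labelled and -0.69 in the control library. Col1a1, which the mesenchyme gate reads, had -1.05 in the KO-labelled and -1.09 in the control library, Col6a2 -1.60 and -2.54, and Lum -3.54 and -3.20. Pdgfra, which the mesenchyme gate reads, was seen in 1 of 175 KO-labelled and 1 of 193 control mesothelial cells after each cell was thinned to 3000 UMIs. Col1a2, one of the mixed genes, stood at 631 CPM in KO-labelled and 503 CPM in control mesothelium, against 598 CPM in KO-labelled and 805 CPM in control mesenchyme. Dcn, which binds collagen fibrils and was above in both, stood at 271 CPM in KO-labelled and 295 CPM in control mesothelium, against 164 CPM in KO-labelled and 261 CPM in control mesenchyme. Of 16 genes of the epithelial-to-mesenchymal transition, 4 were at least 4-fold below mesenchyme in both libraries: Snai2, Zeb2, Acta2 and Mmp2. Zeb2, a repressor of epithelial genes, stood at 8.11 CPM in KO-labelled and 6.72 CPM in control mesothelium, against 241 CPM in KO-labelled and 219 CPM in control mesenchyme.

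Cells just outside the gate also carried mesothelial transcripts. Just outside it lay 42 KO-labelled and 27 control cells with 2 gate UMIs, and just inside it 30 KO-labelled and 16 control cells with 3. Krt19 stood at 162 CPM in KO-labelled and 223 CPM in control cells with 3 gate UMIs, against 243 CPM in KO-labelled and 255 CPM in control cells with 2. Cav1 stood at 292 CPM in KO-labelled and 288 CPM in control cells with 3, against 462 CPM in KO-labelled and 335 CPM in control cells with 2. Other markers differed by library, in levels that rest on these few cells and were given no intervals. Lhx9 stood at 99.7 CPM in KO-labelled and 167 CPM in control cells with 3 gate UMIs, against 112 CPM in KO-labelled and 37.7 CPM in control cells with 2. Wt1 stood at 181 CPM in KO-labelled and 223 CPM in control cells with 3, against 167 CPM in KO-labelled and 104 CPM in control cells with 2. In the control library Ezr, Tm4sf5, Bnc1 and Podxl were likewise lower with 2 gate UMIs than with 3, and in the KO-labelled library Bnc1 and Podxl were higher. Cells with 0 gate UMIs that met the same epithelial and endothelial limits were 2260 in the KO-labelled and 2896 in the control library. They had 5.28 CPM of Cav1 in the KO-labelled and 4.28 CPM in the control library. Cells past those limits, endothelial cells among them, were not counted there. Gate UMIs went with depth, since cells with 10 or more had medians of 13311 UMIs in the KO-labelled and 11641 UMIs in the control library, against 8509.5 and 6662 UMIs in KO-labelled and control cells with 3.

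The share of mesothelial cells had no stable direction between the libraries. It was 5.81% (interval 5.00 to 6.71) in the KO-labelled library and 5.01% (4.35 to 5.75) in the control library, a ratio of 1.16 (0.950 to 1.41). When every cell was first thinned to 3000 UMIs and then gated, 43 of 2955 KO-labelled cells (1.46%) and 80 of 3832 control cells (2.09%) remained, a ratio of 0.697 (0.483 to 1.01). Live cells were sorted before loading, so these are shares of loaded cells.

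Between the libraries, the mesothelial marker genes had ratios spread around 0, and 6 of the 12 genes named for the lowest ratios were on the list of G2 and mitosis genes, as were 7 of the 60 genes at least 2-fold lower. The log2 ratio of KO-labelled over control mesothelium had a median of -0.02 over 9403 measured genes. At least 2-fold lower were 60 genes (0.638%), and at least 2-fold higher were 41 (0.436%). Of these, 38 of the lower and 35 of the higher genes stood under 50 CPM in both libraries, where few molecules carry the ratio, and 9 lower and 6 higher genes passed the same fold in mesenchyme.

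The 18 measured markers had a median ratio of -0.02, with 8 higher and 10 lower, where 46.8% of all measured genes were higher and 53.2% lower. None of the 18 passed 2-fold. Tm4sf5 (-0.01), Ezr (-0.04), Bnc1 (0.09), Podxl (-0.11) and Wt1 (0.11) stood close to equal. Lhx9 was at 0.22 and Krt19 at -0.30. The largest ratios were those of Krt8 (0.68) and Aldh1a2 (-0.75).

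**Figure D2:**
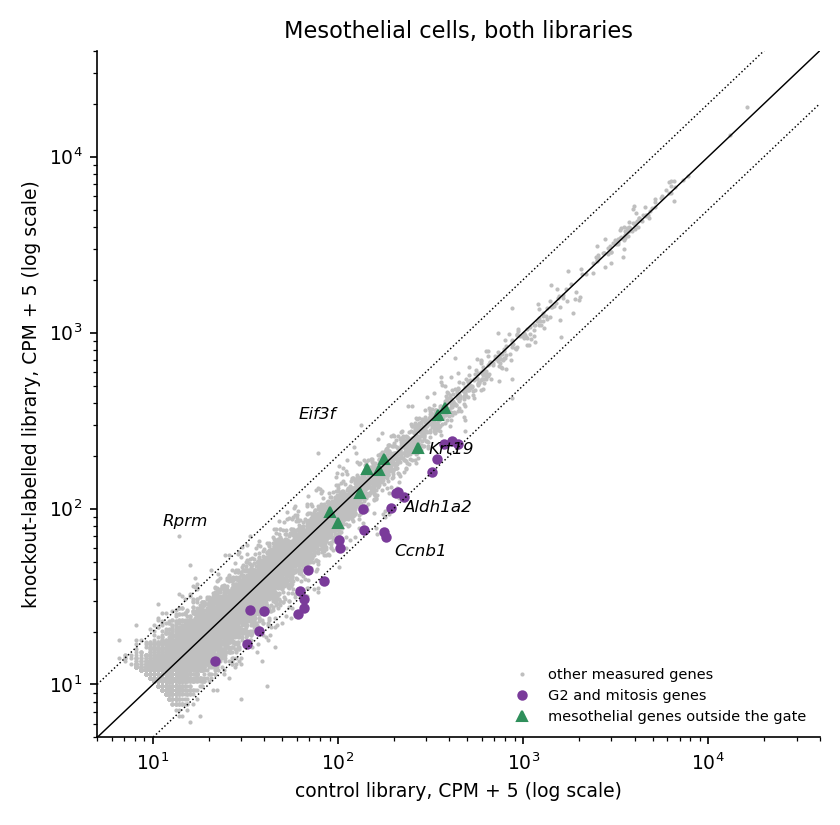
Level of each measured gene in the mesothelial cells of the KO-labelled library (vertical) and the control library (horizontal), as CPM + 5 on log axes, with the line of equality and dotted lines at 2-fold; sex-linked marker genes and gate genes are left out. The 26 G2 and mitosis genes (purple) lie below the line of equality, and Rprm stands above the upper dotted line. Green marks chosen mesothelial genes outside the gate (Krt19, Lhx9, Wt1, Cav1, Tm4sf5, Bnc1, Podxl, Fgf9 and Ezr), which lie near the line of equality. Markers not in green lie further from it, among them Krt8 (log2 ratio 0.68), Aldh1a2 (-0.75), Gpm6a (-0.52) and Krt7 (-0.48).

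The 26 G2 and mitosis genes, which build and run the spindle, were all lower in KO-labelled mesothelium, where 53.2% of measured genes were lower. Of them 24 were at least 1.5-fold lower (4.51% of all genes), and 7 at least 2-fold lower. Their median log2 ratio was -0.87, with a range from -1.40 to -0.33. In mesenchyme 6 of the 26 were lower, with a median of 0.04 and 0 at 1.5-fold. In epithelium 26 of 26 were lower, with a median of -0.73 and 20 at 1.5-fold. The difference between the cell classes was not tested.

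Ccnb1, the cyclin that drives entry into mitosis, had 118 UMIs in KO-labelled and 341 UMIs in control mesothelium. Its level was 63.8 CPM (interval 52.8 to 76.4) in KO-labelled mesothelium, against 176 CPM (158 to 196) in control mesothelium, a log2 ratio of -1.40. Mesenchyme had 84.2 CPM in KO-labelled and 85.0 CPM in control mesenchyme, and the control mesothelium stood above this level and the KO-labelled mesothelium below it. Cdc20, an activator of the anaphase-promoting complex, stood at 68.1 CPM in KO-labelled and 173 CPM in control mesothelium (-1.28). The mitotic kinase Aurka had 37 UMIs in KO-labelled and 108 UMIs in control mesothelium (-1.28). Plk1, another mitotic kinase, stood at 22.2 CPM in KO-labelled and 60.5 CPM in control mesothelium (-1.27). The spindle and division genes Hmmr, Incenp and Kif23 and the nuclear import gene Kpna2 had ratios from -1.21 to -1.11. Rangap1, of nuclear transport, was at -1.18, and Tuba1c, of a tubulin family with near-identical copies whose reads may be shared, at -1.15. Hmgcs1, a cholesterol synthesis enzyme, stood at 24.9 CPM in KO-labelled and 58.9 CPM in control mesothelium (-1.10), beside -0.60 in mesenchyme.

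**Figure D3:**
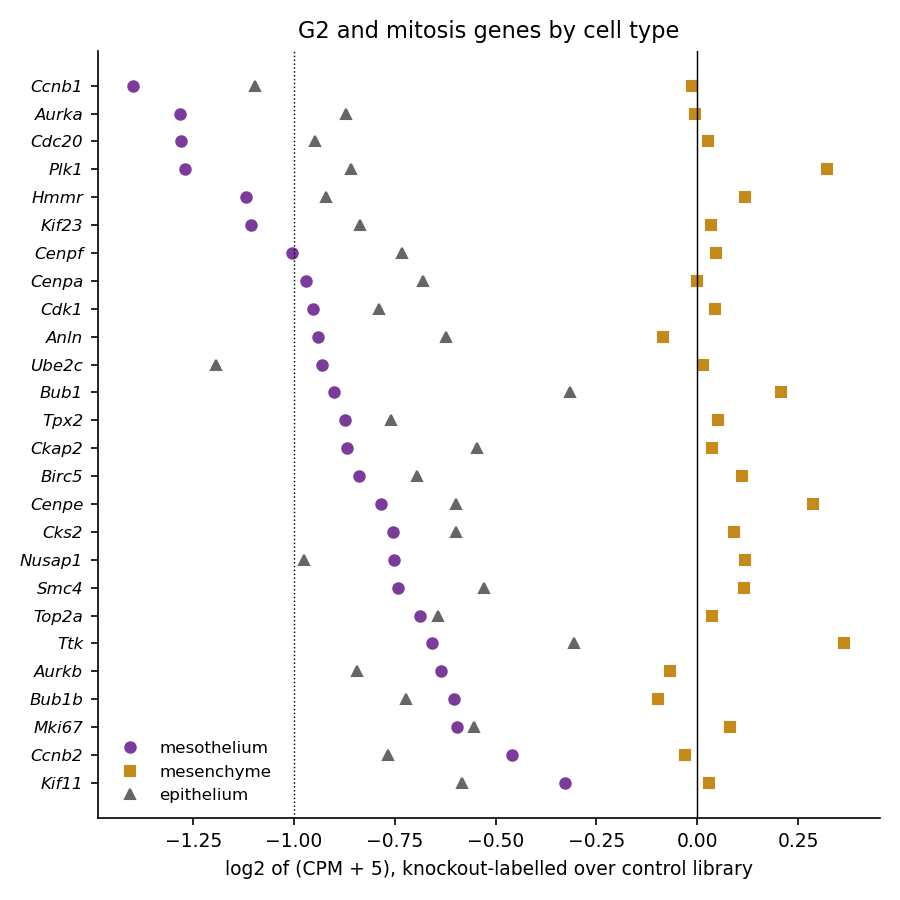
Log2 ratio of the KO-labelled over the control library for the 26 G2 and mitosis genes, in mesothelium (circles), mesenchyme (squares) and epithelium (triangles), with a solid line at 0 and a dotted line at 2-fold lower. All circles and triangles lie left of 0, and the squares lie between -0.10 and 0.36.

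Promoters of the 4 lowest of these genes are shown because the genes were low together and are known to share short sequence elements. The 150 bases before the start of transcription were taken from RefSeq promoters on GRCm38.p6. Capitals mark CCAAT boxes (CCAAT, or ATTGG on the other strand) and the cell cycle genes homology region (CHR, TTTGAA or TTCAAA), elements known from genes of the late cell cycle. The windows are chr13:100786487-100786636 on the minus strand for Ccnb1, chr4:118437344-118437493 on the minus strand for Cdc20, chr7:122159285-122159434 on the plus strand for Plk1 and chr2:172370571-172370720 on the minus strand for Aurka.
Ccnb1: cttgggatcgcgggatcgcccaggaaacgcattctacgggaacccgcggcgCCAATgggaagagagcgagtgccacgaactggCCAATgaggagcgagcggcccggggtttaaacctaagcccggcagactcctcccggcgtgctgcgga
Cdc20: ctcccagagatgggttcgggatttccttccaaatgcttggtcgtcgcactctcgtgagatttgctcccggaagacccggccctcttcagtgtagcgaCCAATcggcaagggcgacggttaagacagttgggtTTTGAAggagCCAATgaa
Plk1: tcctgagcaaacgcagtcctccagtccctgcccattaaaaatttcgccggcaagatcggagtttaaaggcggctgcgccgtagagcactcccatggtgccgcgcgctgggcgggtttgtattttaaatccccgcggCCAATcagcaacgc
Aurka: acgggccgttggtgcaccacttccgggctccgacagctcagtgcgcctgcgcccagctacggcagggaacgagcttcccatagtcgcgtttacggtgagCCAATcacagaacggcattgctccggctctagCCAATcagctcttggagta

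Each of these windows held at least 1 CCAAT box. In Ccnb1 the boxes began 99 and 67 bases before the start, in Aurka 51 and 19, in Cdc20 53 and 8, and in Plk1 14. Starts are those of RefSeq: by the GENCODE gene positions 84 of the 150 bases lie inside Ccnb1 and 9 inside Cdc20, and 0 inside Plk1 or Aurka. The CHR letters stood in Cdc20 alone of the 4, 18 bases before the start. A promoter was found for 23 of the 26 genes of the list, and 20 of them (87.0%) held a CCAAT box, against 2071 of 7244 measured genes with a promoter (28.6%). The CHR letters were in 7 of the 23 (30.4%), against 5.11% of measured genes. Of 20 S phase genes with a promoter, 10 held a CCAAT box and 1 the CHR letters. A match is a stretch of letters and not a bound site.

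Counted per cell, fewer mesothelial cells of the KO-labelled library carried mitosis transcripts. Cells with at least 5 UMIs over Mki67, Top2a, Cenpf, Ccnb1, Cdk1 and Ube2c were 41 of 175 (23.4%, interval 17.4 to 30.4) in the KO-labelled library and 79 of 194 (40.7%, 33.7 to 48.0) in the control library, a ratio of 0.575 (0.419 to 0.790). With every cell thinned to 3000 UMIs the shares were 16.6% in KO-labelled and 28.5% in control mesothelium, a ratio of 0.582 (0.390 to 0.868), with 0 KO-labelled cells and 1 control cell too shallow to enter. Thinned cells without a single UMI of these genes were 68.6% of KO-labelled and 43.0% of control mesothelium.

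The same shares were taken in the other classes of cells, where the intervals again cover counting error and not the spread between animals. The thinned shares with at least 5 UMIs were 17.5% in KO-labelled and 15.7% in control mesenchyme, a ratio of 1.11 (0.959 to 1.29). They were 11.3% in KO-labelled and 23.9% in control epithelium, a ratio of 0.474 (0.352 to 0.638). Without thinning, the share in mesothelium also went with the gate. With at least 6 gate UMIs it was 28.6% in KO-labelled and 50.4% in control mesothelium. With at least 1 it was 21.3% in KO-labelled and 38.1% in control mesothelium. Cells with more gate UMIs were also deeper, and depth was not separated from the gate here. A cell with such transcripts is not shown to be dividing.

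**Figure D4:**
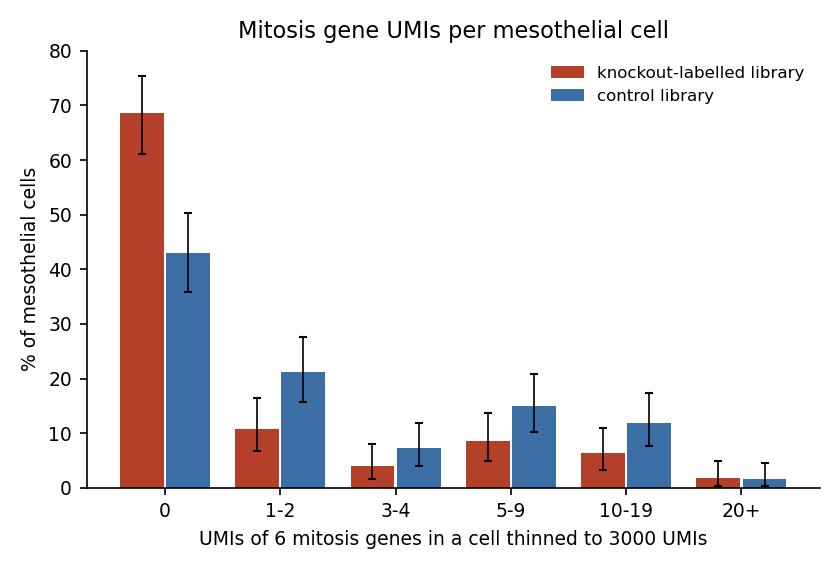
Share of mesothelial cells, thinned to 3000 UMIs each, by their number of UMIs of 6 mitosis genes, in the KO-labelled library (red, left bars, 175 cells) and the control library (blue, right bars, 193 cells); error bars are exact 95% binomial intervals for counting error. Cells without such a UMI are 68.6% of KO-labelled and 43.0% of control cells, and the bins from 1 to 19 UMIs are lower in the KO-labelled library.

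The ratios within cells split by these transcripts are a description only, since genes of 1 process vary together and such a split narrows their difference by its construction. The 20 genes of the list outside those 6 had a median ratio of -0.85 over all mesothelial cells, with 20 of 20 lower. Among the 134 KO-labelled and 115 control cells with fewer than 5 UMIs of the 6 genes their median was -0.17, with 12 lower and 8 higher. Among the 41 KO-labelled and 79 control cells with at least 5 it was -0.26, with 16 lower and 4 higher. S phase genes, which copy DNA, had a median of -0.06 over all cells, with 8 higher and 17 lower of 25. Among all measured genes 53.2% were lower. Tyms, of thymidylate synthesis, stood at 77.3 CPM in KO-labelled and 132 CPM in control mesothelium and was the 1 S phase gene at least 1.5-fold lower. Pcna, the sliding clamp of DNA polymerases, stood at 70.3 CPM in KO-labelled and 52.2 CPM in control mesothelium (0.40). The cyclins of entry into S phase, Ccne1 and Ccne2, had ratios of 0.59 and 0.52.

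Rprm, which encodes reprimo, a target of p53 known to hold cells in G2 when overexpressed, had the highest ratio of the genes named by size. It had 120 UMIs in KO-labelled and 17 UMIs in control mesothelium. Its level was 64.9 CPM (interval 53.8 to 77.6) in KO-labelled mesothelium, against 8.79 CPM (5.12 to 14.1) in control mesothelium, a log2 ratio of 2.34, and this ran from 1.36 to 2.75 over the alternative settings. After thinning it was seen in 26 of 175 KO-labelled (14.9%) and 4 of 193 control mesothelial cells (2.07%). In mesenchyme Rprm stood at 7.35 CPM in KO-labelled and 1.26 CPM in control mesenchyme (0.98). At such low levels the 5 CPM added to each side shrinks the ratio. After thinning it was seen in 32 of 1577 KO-labelled (2.03%) and 6 of 1921 control mesenchymal cells (0.312%), so the difference was not confined to mesothelium. In epithelium Rprm stood at 57.7 CPM in KO-labelled and 44.4 CPM in control epithelium (0.34). In mesothelial cells with fewer than 5 UMIs of the mitosis genes its ratio was 2.28. Other p53 targets looked up were lower in KO-labelled mesothelium. Cdkn1a had 11 UMIs in KO-labelled and 25 UMIs in control mesothelium (-0.71), and Ccng1 16 and 31 UMIs (-0.62). Mdm2 had 51 UMIs in KO-labelled and 72 UMIs in control mesothelium (-0.37). A part of p53 in these ratios was not tested. Rprm lies at chr2:54084093-54085552 (minus strand).

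Of the other genes named for high ratios, several had a like ratio in mesenchyme. Eif3f, a subunit of a translation initiation factor, stood at 293 CPM in KO-labelled and 128 CPM in control mesothelium (1.17), beside 0.90 in mesenchyme. Scand1 had 0.82 in mesothelium and 1.18 in mesenchyme. Yipf4, Vapa, Polr2m and Med30 had ratios from 0.77 to 0.94 in mesothelium and from 0.58 to 0.76 in mesenchyme. A few had lower ratios in mesenchyme. Aplp1, an amyloid precursor-like membrane protein, stood at 50.3 CPM in KO-labelled and 23.8 CPM in control mesothelium (0.94, and 0.09 in mesenchyme). Id2, an inhibitor of helix-loop-helix factors, stood at 170.3 CPM in KO-labelled and 96.2 CPM in control mesothelium (0.79, and -0.21 in mesenchyme). Ypel3 had 0.85 and 0.13, and the corepressor gene Tle4 0.80 and 0.45, in mesothelium and mesenchyme.

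The imprinted growth genes and the signaling receptors had most members on the higher side. Among all measured genes 46.8% were higher. Of 16 measured imprinted genes 13 were higher and 3 lower, with a median of 0.20 in mesothelium and -0.12 in mesenchyme, and 2 were at least 1.5-fold higher (3.74% of all genes). Cdkn1c, an inhibitor of cyclin-dependent kinases, stood at 555 CPM (interval 522 to 590.3) in KO-labelled mesothelium, against 357 CPM (331 to 384) in control mesothelium. Its ratio was 0.63 in mesothelium and 0.27 in mesenchyme. Gnas, a G protein subunit, stood at 379.5 CPM in KO-labelled and 233 CPM in control mesothelium (0.69, and -0.20 in mesenchyme). Of 20 receptors 16 were higher and 4 lower, with a median of 0.23 in mesothelium and 0.02 in mesenchyme. Bmpr2, a receptor of bone morphogenetic proteins, stood at 20.5 CPM in KO-labelled and 11.4 CPM in control mesothelium, and the Slit receptor Robo2 at 8.11 CPM in KO-labelled and 3.10 CPM in control mesothelium. Of 27 growth factor ligands 19 were higher and 8 lower, with a median of 0.14. Sfrp2, which binds Wnt proteins, stood at 83.3 CPM in KO-labelled and 54.8 CPM in control mesothelium (0.56), and Bmp2 at 5.41 CPM in KO-labelled and 12.9 CPM in control mesothelium (-0.78).

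The retinoic acid genes and the junction and polarity genes had most members on the lower side. Among all measured genes 53.2% were lower and 4.51% at least 1.5-fold lower. Of 9 retinoic acid genes 7 were lower and 2 higher, with a median of -0.35, and 2 were at least 1.5-fold lower. Aldh1a2 stood at 114 CPM (interval 99.2 to 131) in KO-labelled mesothelium, against 195 CPM (176 to 216) in control mesothelium. It was seen in 25.7% of KO-labelled and 41.5% of control thinned mesothelial cells, and its ratio of -0.75 ran from -1.06 to -0.53 over the alternative settings. Crabp1, which binds retinoic acid inside the cell, stood at 91.4 CPM in KO-labelled and 175 CPM in control mesothelium (-0.90), and the receptor gene Rarb at 36.2 CPM in KO-labelled and 47.6 CPM in control mesothelium (-0.35). In mesenchyme the list had a median of -0.21, and minus the mesenchymal ratio its median in mesothelium was 0.0095. Of 22 junction and polarity genes 16 were lower and 6 higher, with a median of -0.22. The 2 at least 1.5-fold lower were the claudins Cldn1, at 9.19 CPM in KO-labelled and 19.1 CPM in control mesothelium, and Cldn6. Cldn6 was an epithelial gene here and had only 4 UMIs in KO-labelled and 17 UMIs in control mesothelium. Pdpn, podoplanin, stood at 68.7 CPM in KO-labelled and 99.3 CPM in control mesothelium (-0.50), and Slc9a3r1 had a ratio of -0.37.

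Lineage regulators had single members on either side. Among all measured genes 46.8% were higher and 53.2% lower. Of 20 coelomic epithelium transcription factors 13 were higher and 7 lower, with a median of 0.10. Nr2f1, a nuclear receptor, stood at 201 CPM (interval 181 to 222) in KO-labelled mesothelium, against 120.0 CPM (105 to 136) in control mesothelium. Its ratio was 0.72 in mesothelium and 0.49 in mesenchyme. Osr1, a zinc finger factor of intermediate mesoderm, stood at 115 CPM (interval 100.2 to 132) in KO-labelled mesothelium, against 193 CPM (174 to 213) in control mesothelium. Its ratio was -0.72 in mesothelium and -0.20 in mesenchyme. Of 12 Hox genes 8 were higher and 4 lower, with Hoxa7 at 49.2 CPM in KO-labelled and 84.8 CPM in control mesothelium (-0.73) and Hoxb8 at 22.2 CPM in KO-labelled and 9.31 CPM in control mesothelium (0.93).

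The remaining lists had medians near that of all genes. The 18 COMPASS genes had a median of 0.04, with 10 higher and 8 lower and 0 at 1.5-fold. The 18 measured Polycomb genes, which silence genes in opposition to COMPASS, had a median of -0.04, with 7 higher and 11 lower and 0 at 1.5-fold. Basement membrane genes (0.09), genes of the epithelial-to-mesenchymal transition (0.04), simple epithelial keratins (-0.01), glycolysis genes (0.01), heat shock genes (-0.06), cilium genes (0.10), hedgehog and Notch targets (0.14), complement and shield genes (-0.01) and immediate early genes (0.10) followed, and several of these medians changed sign with the settings. Single members stood out: the collagen Col4a6 had 38 UMIs in KO-labelled and 12 UMIs in control mesothelium, the complement inhibitor Cd59a 38 UMIs in KO-labelled and 13 UMIs in control mesothelium, and the glucose transporter Slc2a1 89 UMIs in KO-labelled and 48 UMIs in control mesothelium. Of 16 fibrillar matrix genes 6 were higher and 10 lower, with a median of -0.10 in mesothelium and -0.30 in mesenchyme. Col6a1 stood at 16.8 CPM in KO-labelled and 18.1 CPM in control mesothelium, where it had 82.1 CPM in KO-labelled and 172 CPM in control mesenchyme. Of the metallothioneins 0 were measured.

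Genes known from other cell types were also counted in the mesothelial cells. The 9 mesenchyme genes, some of which mesothelial cells make themselves, summed to 1595 CPM in KO-labelled and 1589 CPM in control mesothelium, with 0 and 1 genes at 0, and to 2191 CPM in KO-labelled and 2887 CPM in control mesenchyme. The 6 erythroid genes summed to 374 CPM in KO-labelled and 192 CPM in control mesothelium, and to 1360 CPM in KO-labelled and 178 CPM in control mesenchyme, with 1 gene at 0 in the mesothelium of either library. The globin gene Hbb-bs was seen in 151 of 175 KO-labelled mesothelial cells (86.3%) and in 95 of 194 control ones (49.0%), and after thinning in 45.7% of KO-labelled and 19.7% of control ones. Of 5 measured, 4 were higher and 1 lower, with a median ratio of 1.06 in mesothelium and 3.06 in mesenchyme. The 8 epithelial genes summed to 22.7 CPM in KO-labelled and 50.2 CPM in control mesothelium, with 3 and 0 genes at 0, against 3593 CPM in KO-labelled and 4803 CPM in control epithelium. The 6 immune genes held 8 UMIs in KO-labelled and 15 UMIs in control mesothelium, with 4 and 1 genes at 0, and the 6 neural genes held 17 and 14 UMIs in KO-labelled and control mesothelium. The 4 endothelial genes summed to 27.0 CPM in KO-labelled and 26.4 CPM in control mesothelium, above the 2.58 CPM in KO-labelled and 2.08 CPM in control mesenchyme, and nearly all of it was Kdr (30 UMIs in KO-labelled and 36 UMIs in control mesothelium) and Esam (18 UMIs in KO-labelled and 14 UMIs in control mesothelium). S100a8, a granulocyte gene chosen after its values were seen, had a ratio of -1.85 in mesothelium and -3.72 in mesenchyme. The part of such RNA in the other ratios was not tested.

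Variation among the cells of a library was read after thinning. The genes with the largest Fano factor, the variance of thinned counts over their mean, beside genes of like mean were Malat1, Hist1h2ap, Actb, Tmsb4x, Hmgb2, Ube2c, Cenpf, Ptn, H2afz and Arl6ip1. Malat1, a nuclear RNA that codes for no protein, had Fano factors of 15.5 in the KO-labelled and 14.1 in the control library. Hist1h2ap, a histone gene of a family with near-identical copies whose reads may be shared, had a Fano factor of 8.09 in the KO-labelled and 8.25 in the control library. It was seen in 18.9% of KO-labelled and 33.7% of control mesothelial cells. The chromatin protein gene Hmgb2 was seen in 63.4% of KO-labelled and 75.1% of control cells. Markers were more even, with Fano factors of 1.34 in the KO-labelled and 1.60 in the control library for Krt19 and of 0.771 in the KO-labelled and 1.01 in the control library for Wt1. Counting alone gives values near 1.

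Cells were also compared by whether they held an Lhx9 UMI. Cells with at least 1 Lhx9 UMI after thinning were 51 of 175 in the KO-labelled and 53 of 193 in the control library. Ptn, the growth factor pleiotrophin, stood at 824 CPM in KO-labelled cells with an Lhx9 UMI, against 1707 CPM in those without, and at 686 CPM in control cells with one, against 1486 CPM in those without. These are log2 ratios of -1.03 in the KO-labelled and -1.09 in the control library, on the scale of CPM + 20. Col1a1 had ratios of -1.09 in the KO-labelled and -0.59 in the control library, Tmsb4x, an actin-binding peptide, -0.82 and -0.63, and Id3, Sox11 and Sept2 ranged from -0.84 to -0.56. On the other side Ezr had ratios of 0.48 in the KO-labelled and 0.54 in the control library and the adhesion molecule Alcam 0.51 and 0.68, with Krt19, Fam162a, Rbms1 and Atp6v1g1 also higher. These 12 genes were picked after their values were seen, as the largest differences of one sign in both libraries among 554 genes with at least 100 UMIs in each, so that they go the same way in both follows from the choice. A cell without an Lhx9 UMI may still express the gene.

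**Figure D5:**
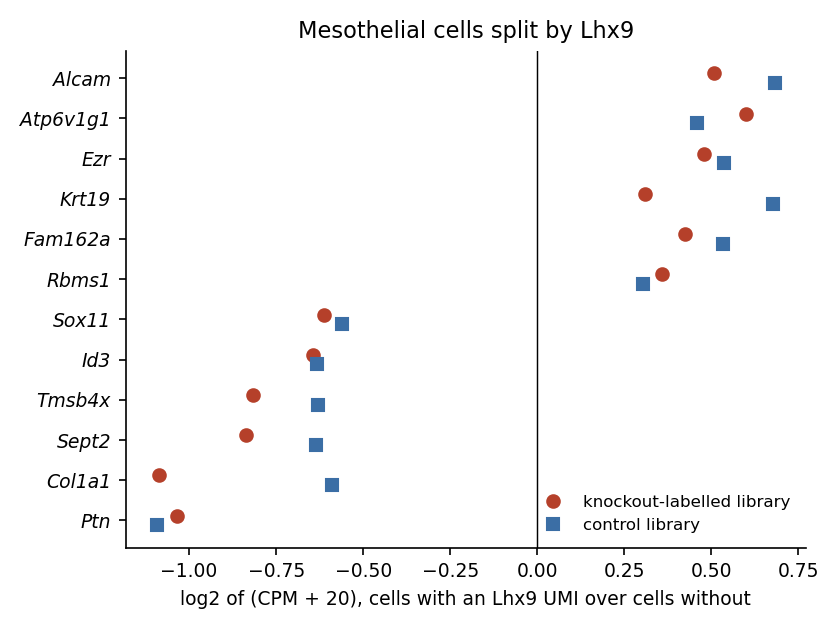
Log2 ratio of CPM + 20 between thinned mesothelial cells with and without an Lhx9 UMI, for the 12 genes picked by this contrast, in the KO-labelled library (red circles) and the control library (blue squares). Ptn lies near -1 in both libraries, with -1.03 in the KO-labelled and -1.09 in the control library, and the 6 higher genes lie between 0.30 and 0.68.

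The same split by Isl1 and Krt19 gave smaller ratios. With Isl1, 68 of 175 KO-labelled and 85 of 193 control cells, the lowest gene was Gnb2 at -0.59 in the KO-labelled and -0.38 in the control library. With Krt19, 77 of 175 KO-labelled and 94 of 193 control cells, Hist1h2ap had ratios of -0.41 in the KO-labelled and -0.79 in the control library, and Dcn -0.49 and -0.38. These genes too were picked after their values were seen.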

How the data were processed

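The submitters deposited filtered 10x matrices of UMI counts per gene and barcode, from 1 KO-labelled and 1 control pancreas, made with Chromium 3′ chemistry version 2. The counts were made with Cell Ranger on GRCm38 and analysed with Seurat 2 and 3, per the submitters' processing notes; the sources used here name no Cell Ranger version, aligner or annotation release. A deposited cluster-marker table was not used.

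Members and gene lists were chosen with earlier results of these data known. Counts were summed over mesothelial cells per library and scaled to CPM, with log2 ratios of CPM + 5 for genes with at least 20 UMIs. With 1 library per group there is no test. Intervals are exact (Poisson for counts, Clopper-Pearson for shares). Cells were thinned to 3000 UMIs for shares of cells. Doublets were not removed, except as an alternative. The text names the 12 highest and 12 lowest ratios between libraries, the 20 highest and 10 lowest over mesenchyme (each with at least 50 CPM in a library), the 10 most variable genes, the gate and label markers, Dpy30 and list members, leaving out ribosomal, mitochondrial, haemoglobin and sex-linked genes and unnamed gene models. Some genes that this rule names are not reported here. Gene positions are from GENCODE vM21 on GRCm38, and promoter sequences from RefSeq on GRCm38.p6. Python 3.11.15, numpy 2.4.6, scipy 1.17.1, pandas 2.3.3, scanpy 1.11.5 and matplotlib 3.10.9 were used, and the fold and interval code was checked on simulated data.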

Additional observations from a re-analysis of the deposited data

How the results depend on the processing

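No paired analysis was possible because each group has 1 library and no test was made. Counts of genes past 2-fold depended on the settings more than directions did. The 41 higher genes became 152 with a pseudocount of 1, 6 with a pseudocount of 20, 10 among genes with at least 100 UMIs, 78 with haemoglobin, mitochondrial and ribosomal genes left out of the CPM, and 72 among cells with under 5 UMIs of the mitosis genes. The 60 lower genes became 180 with a pseudocount of 1, 7 with 20, 28 with at least 100 UMIs, 100 with at least 6 gate UMIs, 116 with the gate after thinning and 97 without the 25% of cells highest in mesenchyme genes. The genes on these lists changed too. With the gate after thinning, 7 of the 60 lower and 3 of the 41 higher genes stayed on them. With members thinned to 3000 UMIs, 25 of the 60 and 15 of the 41 stayed. Among cells with under 5 UMIs of the mitosis genes, 18 of the 60 and 24 of the 41 stayed. The 126 genes 4-fold above mesenchyme became 62 with the gate after thinning, 522 at 2-fold and 40 at 8-fold, and 239 were 4-fold above epithelium. The share ratio of 1.16 became 0.697 with the gate after thinning. The ratio of mitotic shares stayed between 0.465 and 0.602 over 12 alternatives.

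The median of the erythroid list, 1.06 in mesothelium and 3.06 in mesenchyme, reversed to -2.02 when the mesenchymal ratio was subtracted. Cdc20 reversed to 0.11 among cells with under 5 UMIs of the mitosis genes, a split that narrows such differences by its construction. There it stood at 10.7 CPM in KO-labelled and 9.56 CPM in control mesothelium. The cause of the ratios themselves was not tested. Of 58 genes and list medians followed, 17 changed sign in at least 1 alternative. With the gate after thinning Dpy30 turned to 0.15, Upk1b to 0.36 and the basement membrane median to -0.15. Minus the mesenchymal ratio Scand1 turned to -0.36 and the medians of the fibrillar matrix genes to 0.29, of the mesenchyme markers to 0.35 and of the retinoic acid genes to 0.0095. With at least 6 gate UMIs the medians turned to -0.14 for COMPASS, -0.07 for Hox and -0.13 for hedgehog and Notch targets. Of 236 values of the 14 named genes past 2-fold, 235 kept their sign and 220 stayed past 2-fold. Median-of-ratios scaling gave 46 higher and 55 lower genes, and TMM scaling 45 and 57. The alternatives with at least 1 gate UMI and with cells under 5 UMIs of the mitosis genes, and the 100-UMI minimum of the split by Lhx9, were chosen after seeing the data. Low genes rest on few molecules, and 1 library per group leaves the spread between animals unknown.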
